A study of Homo sapiens with 4 samples.

Results

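The p53 target genes of apoptosis considered here are the BH3-only genes BBC3 and PMAIP1, their partner BAX, the death receptor genes FAS, TNFRSF10A, TNFRSF10B, TNFRSF10C and TNFRSF10D, and the p53-inducible genes TP53I3 and TP53INP1. They are 10 of 20037 protein-coding genes in the RefSeq table of GRCh38, and all 10 were found there by symbol. They come from a named list whose rule uses no measured value, although the list was drawn up with earlier results of these data known. The samples were 2 immunoprecipitates (IPs) with the p63 antibody D9L7L and 2 inputs, chromatin that was not immunoprecipitated. All came from HSC-5, a long-established cell line of human skin squamous carcinoma. Cells were fixed with 1% formaldehyde for 12 min, and the labels name no treatment, no genetic change and no second condition. The labels do not give the p63 isoforms that the antibody recognises or say whether the replicates were separate cultures, and a single line stands for the tumour type.

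p53, p63 and p73 are related transcription factors that bind the same kind of DNA element, a pair of half-sites with a CNNG core in each. After DNA damage p53 raises transcription of genes that open either route to cell death. In the mitochondrial route, BH3-only proteins neutralise BCL2-like survival proteins or activate BAX and BAK1, which permeabilise the outer mitochondrial membrane. In the other route, ligands such as TRAIL or FAS ligand bind death receptors at the cell surface, and the receptors recruit FADD and caspase-8. p63 maintains the basal cells of skin and other stratified epithelia, and in squamous carcinoma its commonest isoforms lack the N-terminal transactivation domain.

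Of the 22139487 IP tags of replicate 1, 12687447 remained once duplicates had been removed. Its list held 4077 peaks, 3994 of them on chromosomes 1 to 22, X and Y. A tag is a sequenced read, and a peak is an interval in which the authors' caller found more IP tags than in the control. No peak of that list had under 8 tags. Replicate 2 was much shallower, with 868393 IP tags kept, 2934 peaks and a lowest count of 4 tags. Its coordinates do not follow the numbering of the gene table, so it was not placed on genes and was used only through the spacing between peaks.

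BBC3 was the single member with a p63 peak. A peak was assigned to every gene whose span, or the 50 kb on either side, held the summit, the peak's highest point. By that rule 1 of 10 members had a peak, against 19.8% of all protein-coding genes. With the gene span alone the count was again 1 of 10, against 7.10% of all protein-coding genes, and with 100 kb either side 1 of 10, against 29.9%. The members' count thus lay near or below the share among all genes at each of these distances, and with 10 genes a difference of 1 or 2 genes separates these shares. With 200 kb either side the count was 3 of 10, against 45.4%, and with 500 kb it was again 3 of 10, against 69.8%. Members without a listed peak may hold fewer tags than the list's minimum, so binding below that level was not detectable at this depth.

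**Figure D1:**
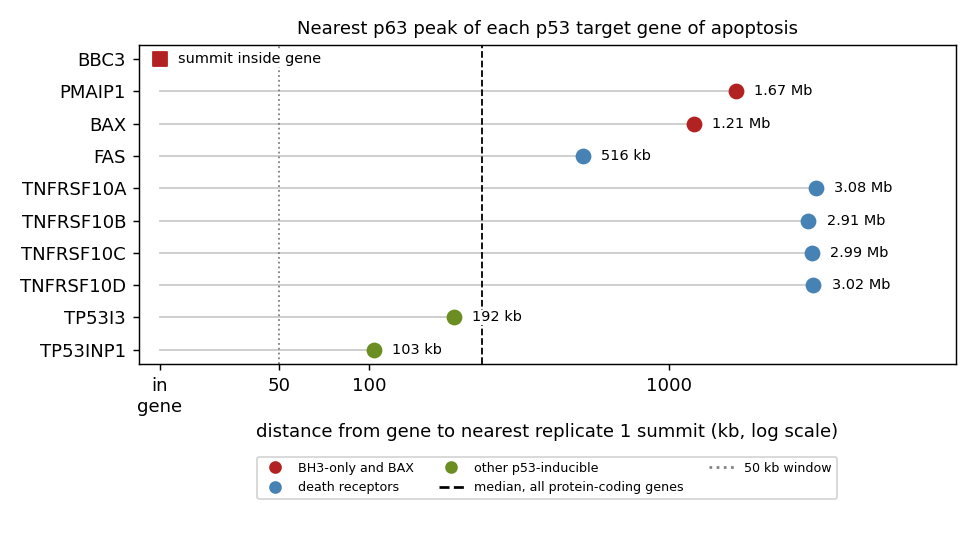
Distance in kb (log scale) from each member to its nearest replicate 1 summit, coloured by role. BBC3 has a summit inside the gene and is drawn at the left edge. The dashed line is the median of all protein-coding genes, 236.5 kb, and the dotted line is the 50 kb window. TP53INP1 and TP53I3 lie left of the median, and the other 7 members lie right of it.

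The promoters of 5 of the 10 members were given by RefSeq (GRCh38.p14), as 7 windows, 3 of them for FAS. Each runs from 250 bases before to 50 after a listed transcription start. The BBC3 window is shown because it is the member window nearest to a peak, and the FAS window because it holds the closest match to the p53 element among the members. The MDM2 window is shown as a comparison, a p53 target outside the list whose own peak covers a match. Only the 250 bases before the start are printed, and capitals mark the best match to the 20-base p53 full site, where one was found in them.
BBC3, chr19:47232668-47232917, minus strand: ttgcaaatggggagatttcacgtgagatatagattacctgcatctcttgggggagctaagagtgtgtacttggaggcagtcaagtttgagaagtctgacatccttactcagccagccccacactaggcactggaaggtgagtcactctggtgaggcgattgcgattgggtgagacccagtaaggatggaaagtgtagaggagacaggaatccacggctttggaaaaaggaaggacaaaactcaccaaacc
FAS, chr10:88991181-88991430, plus strand: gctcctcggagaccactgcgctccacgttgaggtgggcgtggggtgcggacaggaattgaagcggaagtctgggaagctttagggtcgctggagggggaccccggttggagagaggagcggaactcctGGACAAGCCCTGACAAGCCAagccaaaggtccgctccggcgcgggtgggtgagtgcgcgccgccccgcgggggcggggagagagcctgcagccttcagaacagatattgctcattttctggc
MDM2, chr12:68808767-68809016, plus strand: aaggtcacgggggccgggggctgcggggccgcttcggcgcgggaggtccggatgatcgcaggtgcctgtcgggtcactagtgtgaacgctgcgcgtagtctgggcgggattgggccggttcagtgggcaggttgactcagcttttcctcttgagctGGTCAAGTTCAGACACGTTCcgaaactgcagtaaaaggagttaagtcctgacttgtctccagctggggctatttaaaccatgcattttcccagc

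The match was to a pair of abutting p53 half-sites of 10 bases with no spacer, with C and G required at both CNNG cores. The half-site consensus reads the same on both strands, so both were covered by one pass. The best 20-base stretch of each gene is given below with the 4 core bases in capitals.
FAS, 2 mismatches: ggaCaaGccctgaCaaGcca
PMAIP1, 3 mismatches: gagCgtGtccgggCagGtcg
BAX, 6 mismatches: aggCagGtgcggtCacGtga
MDM2, 2 mismatches: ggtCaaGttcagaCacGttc
TP73, 2 mismatches: gggCaaGctgaggCctGccc
Of 35116 promoter windows, 100 (0.285%) held a stretch with at most 2 mismatches and 392 (1.12%) one with at most 3. A window with the 4 core bases in place at any number of mismatches was common, at 73.4%. The best stretch of TP53I3 had 10 mismatches and those of the other 2 FAS windows had 8. No stretch of the BBC3 window had all 4 core bases, which says only that these letters are not in that window. The FAS window was also the single member window with a perfect half-site, against 6.63% of all windows.

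BBC3 encodes PUMA, a BH3-only protein that binds all of the main BCL2-like survival proteins. The gene (gene 27113) occupies chromosome 19, 47220824 to 47232860, on the minus strand. Its peak, at 47231270 to 47231577 with the summit at 47231358, was 308 bp wide and had 21 tags (exact Poisson 95% interval 13.0 to 32.1, counting error only). The authors' fold enrichment was 41.52, their score was 181.19 and their false discovery rate was 0%. Within the list, the peak ranked 40 of 3994 by fold, 184 by score and 625 by tags. A fold at least as large was found in 1.13% of the peaks and at least as many tags in 16.6%. Medians over the list were 13.36 for fold, 10 tags and 245 bp. BBC3 therefore stood much higher by fold than by tag count. Among the 1655 peaks with a summit inside a protein-coding gene, it ranked 19 by fold and 148 by tags. Peaks of 17, 19, 22 and 25 tags in the list had exactly the same fold of 41.52, so this value did not follow the tag count. The part of the control in this fold was not tested.

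The summit lay inside the gene, 1309 bp downstream of the listed transcription start and 1502 bp from the gene's upstream end. The gene's other end was 10534 bp away. Inside BBC3 the annotation also places the microRNA genes MIR3190 and MIR3191, and the summit lay 4337 and 4339 bp from them. The gene table gives no exons, so it was not determined whether the peak is exonic or intronic. No other peak lay within 50 kb or within 100 kb of BBC3. The neighbouring peaks were in ARHGAP35 at 254.9 kb with 9 tags, and in BICRA, a chromatin remodelling subunit gene, at 400.9 kb with 12 tags and a fold of 28.55. Counting its own peak, BBC3 had 5 peaks within 1 Mb, and 22 other protein-coding genes lay within 500 kb of it.

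The BBC3 peak had no matched counterpart in replicate 2. No peak of chromosome 19 was matched by spacing, among 135 peaks of replicate 1 and 84 of replicate 2, and the reason was not tested. The peak therefore rests on replicate 1 alone.

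**Figure D2:**
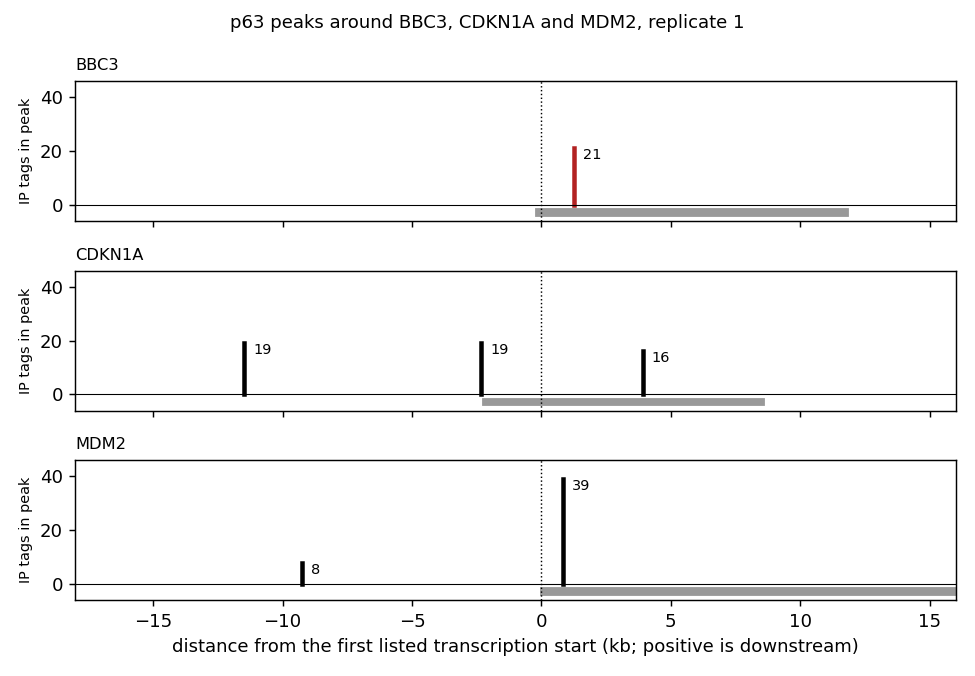
Replicate 1 peaks around BBC3, CDKN1A and MDM2, each drawn as a line whose height is its IP tag count, against distance in kb from the first listed transcription start (positive is downstream). Grey bars are gene spans. BBC3 has 1 peak of 21 tags just downstream of its start, CDKN1A has peaks of 19, 19 and 16 tags, and MDM2 has peaks of 8 and 39 tags.

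The other members of the mitochondrial route had no peak near them. BAX encodes the effector that forms pores in the mitochondrial outer membrane, and it lies on the same chromosome as BBC3, at 48954875 to 48961798. The nearest summits were 1210 kb away on the lower side, next to NOP53 with 8 tags, and 1243 kb away on the higher side, in MYH14 with 8 tags. Both had the lowest tag count of the list. The peak-free interval of 2.46 Mb around BAX held 106 protein-coding genes and ranked 3 by gene count among 3970 intervals between neighbouring peaks. BAX thus sits in a gene-dense interval without a listed peak, with 54 other protein-coding genes within 500 kb. Chromosome 19 as a whole had 9.30 peaks per 100 protein-coding genes, against 19.9 over all chromosomes.

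PMAIP1 encodes NOXA, a BH3-only protein that antagonises MCL1. The gene lies on chromosome 18, 59899996 to 59904305, and its nearest summit was 1669 kb away, in NEDD4L, a ubiquitin ligase gene, with 9 tags and a fold of 18.17. That peak was the last one listed on the chromosome. The 22.0 Mb beyond it held 73 protein-coding genes and no peak, among them the survival gene BCL2, which lay 4.89 Mb from the nearest summit. Chromosome 18 had 16 peaks, or 5.93 per 100 protein-coding genes. PMAIP1 and BAX thus both lie on chromosomes with fewer peaks per gene than the whole list, and BBC3 shares chromosome 19 with BAX. The part of the chromosome in these distances was not tested. The PMAIP1 promoter match of 3 mismatches printed above lay 1669 kb from that summit.

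The death receptor genes had no peak within 50 kb, 100 kb or 500 kb, distances at which 19.8%, 29.9% and 69.8% of protein-coding genes had one. FAS encodes the receptor for FAS ligand and is known to carry a p53 response element in its first intron in human cells. It lies on chromosome 10, 88964050 to 89017059, and at 53010 bp is the longest member. The nearest summit was 515.7 kb away in SLC16A12, a transporter gene, with 15 tags (8.40 to 24.7) and a fold of 16.34. On the lower side the nearest summit was 703.1 kb away in RNLS, with 14 tags and a fold of 18.15. The RNLS peak was matched by spacing to a replicate 2 peak of 4 tags. The FAS element printed above, at chr10:88991309-88991328, lies 122 to 103 bases before one listed start and 541.4 kb from the nearest summit. It lies downstream of the other 2 listed starts, at 88990798 and 88990914. It may therefore be the known element in the first intron, but without exons in the gene table this was not determined. FAS thus holds one of the closest matches to the p53 element among all promoter windows and no listed p63 peak over it. How many of the 100 windows with at most 2 mismatches had a peak over the match was not counted. MDM2 and TP73 were chosen for comparison, so FAS is not shown to be an exception. FAS was also the death receptor gene nearest to a peak, and 29.5% of protein-coding genes were farther from one.

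TNFRSF10A and TNFRSF10B encode the death-domain TRAIL receptors DR4 and DR5, TNFRSF10C encodes a decoy receptor without a death domain, and TNFRSF10D one with a truncated domain. The 4 genes form a block of 204.97 kb on chromosome 8, from 23020133 to 23225102, in the order TNFRSF10B, TNFRSF10C, TNFRSF10D and TNFRSF10A. Gaps between neighbours were 33.9, 18.1 and 26.4 kb. With 50 kb added on each side, 5 of the 6 gene pairs had overlapping windows, so that a peak in the block could have been counted for several receptors. They shared 0 peaks within 50 kb, because no summit fell in any of the windows.

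What the 4 receptor genes did share was their flanking peaks. The nearest on the lower side, at chromosome 8, 20112084 to 20112334, held 9 tags (4.12 to 17.1). Its fold was 9.72, and it lay 32.7 kb from SLC18A1, a vesicular amine transporter gene. From it, TNFRSF10B was 2.91 Mb, TNFRSF10C 2.99 Mb, TNFRSF10D 3.02 Mb and TNFRSF10A 3.08 Mb away. The peak on the higher side, at 29770469 to 29770777, held 27 tags (17.8 to 39.3). Its fold of 59.69 ranked 8 in the list, and it was matched to a replicate 2 peak of 5 tags. It lay 6.55 Mb from TNFRSF10A and 6.70 Mb from TNFRSF10B, and its nearest protein-coding gene was SARAF at 292 kb. The interval between both peaks was 9.66 Mb long and held 80 protein-coding genes. It ranked 9 by gene count and 16 by length among 3970 intervals. Between 3.04% and 3.29% of protein-coding genes were farther from a peak than these receptors. These 4 distances are one observation, since the genes are neighbours.

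Chromosome 8 as a whole was not poor in peaks. It had 232 peaks in replicate 1, or 32.4 per 100 protein-coding genes, against 19.9 over all chromosomes. That rate does not describe the region around the receptor genes, for which no rate was computed. Measured from the middle of the block, the nearest lower peaks lay at -3.01, -3.80, -4.08, -4.38, -6.45 and -10.6 Mb. On the higher side the nearest lay at 6.65, 6.73, 6.74 and 12.1 Mb. Replicate 2, in its own numbering, listed 5 peaks of 4 or 5 tags between the same numbers, and the last of these is the match of the 27-tag peak. The other 4 were not placed relative to the receptor genes, because nothing was converted between builds.

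**Figure D3:**
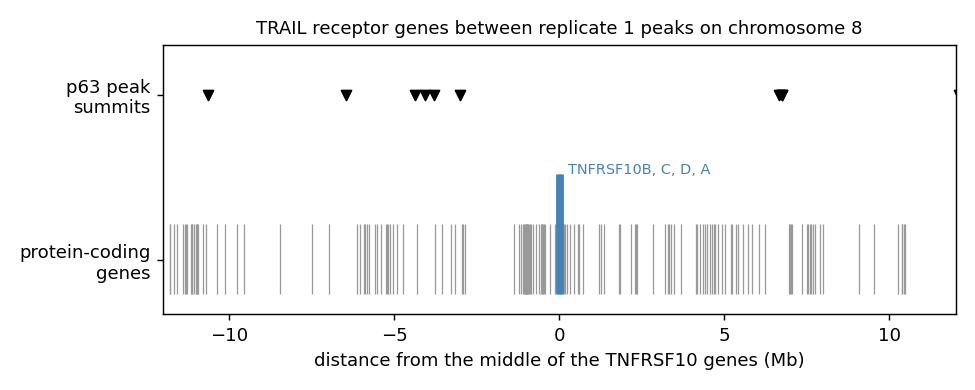
Replicate 1 summits (triangles) and protein-coding genes (grey lines) along chromosome 8, in Mb from the middle of the TNFRSF10 block, which is drawn in blue. The interval of 9.66 Mb around the receptors holds many genes and no summit, and summits stand on both sides of it.

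Set side by side, 1 of 3 BH3-only and BAX genes had a peak within 50 kb and 0 of 5 death receptor genes did. The first group had 1 distinct peak with 21 tags and the second had none. Median distance to the nearest summit was 1210 kb for BBC3, PMAIP1 and BAX and 2.99 Mb for the death receptor genes, against 236.5 kb over all protein-coding genes. Distances ran from inside the gene to 1.67 Mb for the first group and from 515.7 kb to 3.08 Mb for the second, so they overlapped. The difference in counts is the single BBC3 peak, and the receptors amount to 2 separate places in the genome. Over all 10 members the median was 1.44 Mb, close to the 90th percentile of all protein-coding genes, 1.43 Mb, and 4 of the 10 values are those of the neighbouring TNFRSF10 genes.

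The remaining members were nearer to peaks. TP53INP1 encodes a stress-induced nuclear protein that takes part in p53 phosphorylation and autophagy. It lies on chromosome 8, 94925972 to 94949378, and its nearest summit was 103.2 kb away, 0.537 kb outside INTS8, an Integrator subunit gene, with 9 tags and a fold of 10.89. The next summit, on the other side, was 823.8 kb away with 8 tags. TP53I3 encodes a quinone oxidoreductase linked to oxidative stress in p53-induced death. It lies on chromosome 2, 24077433 to 24084834, and its nearest summit was 191.7 kb away in ITSN2, an endocytic scaffold gene, with 13 tags (6.92 to 22.2) and a fold of 27.23. On its other side the nearest summit was 2.44 Mb away. Both genes were nearer to a summit than the median gene, and both lay outside the 50 kb and 100 kb windows. These were the first members outside the window, and BBC3 was the single one inside.

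Other genes of both death routes were read from lists that share no gene with the members. Of 44 such genes, 13 (29.5%) had a peak within 50 kb, against 19.8% of all protein-coding genes. They had 15 distinct peaks between them. No list was tested, and the counts by list shifted with the way of counting. Among the other BCL2 family genes, 4 of 13 had a peak, against the same 19.8%. BAK1, the effector that acts in parallel with BAX, had a peak of 24 tags (fold 26.62) 15.6 kb away that was matched to a replicate 2 peak of 4 tags, and another of 9 tags. MCL1, the survival protein that NOXA antagonises, had a peak of 23 tags at 44.9 kb, nearest to ENSA. BCL2L1, which encodes the survival protein BCL-XL, had 18 tags inside the gene. BAD, a BH3-only gene, had 18 tags at 40.2 kb, nearest to PRDX5.

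Among other mitochondrial death genes, 1 of 10 had a peak within 50 kb, against 19.8% of all protein-coding genes. It was AIFM2, a flavoprotein gene, with 29 tags and a fold of 36.3 at 14.1 kb, where TYSND1 was the nearer gene. Of the other death receptor pathway genes, 5 of 11 had a peak, against the same 19.8%. TNFSF10, which encodes the ligand TRAIL, had 14 tags (7.65 to 23.5) and a fold of 9.86 at 34.2 kb. CFLAR, an inhibitor of caspase-8, had peaks of 10 and 8 tags inside the gene, and the 8-tag peak was also counted for its neighbour CASP10. TNFRSF1A, the main TNF receptor, had 9 tags at 31.0 kb, and TNFRSF25, another death-domain receptor, had 8 tags at 23.0 kb. Tag counts in this list, at 8 to 14, were low, and FASLG, the gene of FAS ligand, was just outside the window at 52.4 kb. The ligand TRAIL thus had a listed peak nearby and its 4 receptors did not.

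Of the other p53-inducible apoptosis genes, 3 of 10 had a peak, all inside the gene. Among all protein-coding genes, 19.8% had a peak within 50 kb and 7.10% had one inside the span. PIDD1, a death-domain scaffold for caspase-2, had 26 tags and a fold of 34.65, with another peak of 13 tags at 32.3 kb. PHLDA3, an inhibitor of AKT, had 9 tags and a match of 6 tags in replicate 2. STEAP3, a metalloreductase, had 9 tags.

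**Figure D4:**
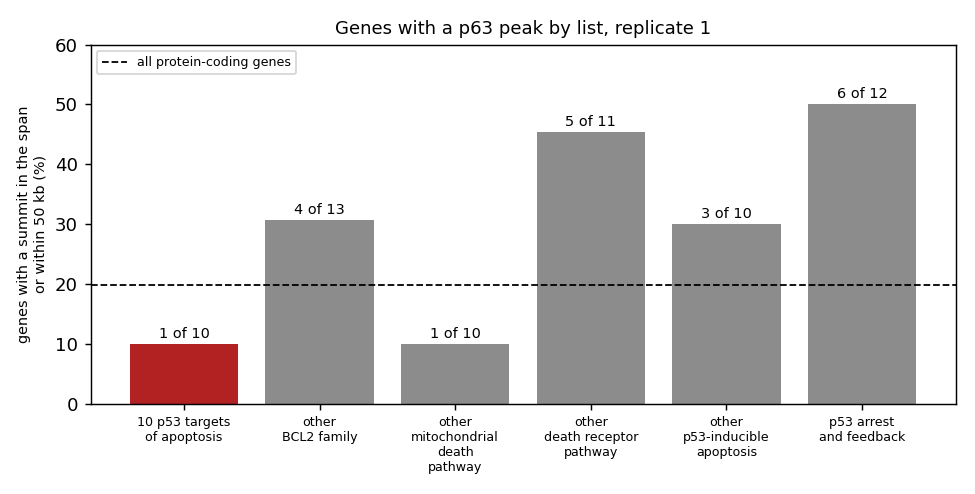
Share of genes (%) with a replicate 1 summit in the span or within 50 kb, for the 10 members in red and 5 other lists in grey, with the counts above the bars. The dashed line is the share of all protein-coding genes, 19.8%. The members and the other mitochondrial death genes, at 1 of 10 each, lie below the line, and the other lists lie above it.

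The p53 targets of arrest and feedback had peaks within 50 kb in 6 of 12 genes, against 19.8% of all protein-coding genes. They had 9 distinct peaks and 161 tags. Under the 11 other ways of counting listed at the end, the number of these genes with a peak ranged from 0 to 7. With 200 kb either side it was 9 and with 500 kb 10, against 45.4% and 69.8% of all protein-coding genes. The list was not tested. MDM2, the ubiquitin ligase of p53, had 39 tags (27.7 to 53.3) and a fold of 33.63 inside the gene, and 8 tags at 9.23 kb. The match to the p53 element printed above, at chr12:68808923-68808942, lay 10 bp from the summit of the 39-tag peak. CDKN1A, the cell cycle inhibitor p21, had 19, 19 and 16 tags, and its highest fold was 30.51. GADD45A had 24 tags and RRM2B 19 tags, both inside the gene. BTG2 had 9 tags and CCNG1 8 tags outside theirs. By fold, the BBC3 peak at 41.52 stood above every peak of these lists, while MDM2, AIFM2, PIDD1, BAK1, GADD45A and MCL1 had more tags. The interval of the BBC3 count, 13.0 to 32.1, covers the counts of all of them but MDM2. Since peaks of 17 to 25 tags shared the fold of 41.52, the order by fold was not read as an order of p63 occupancy.

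**Figure D5:**
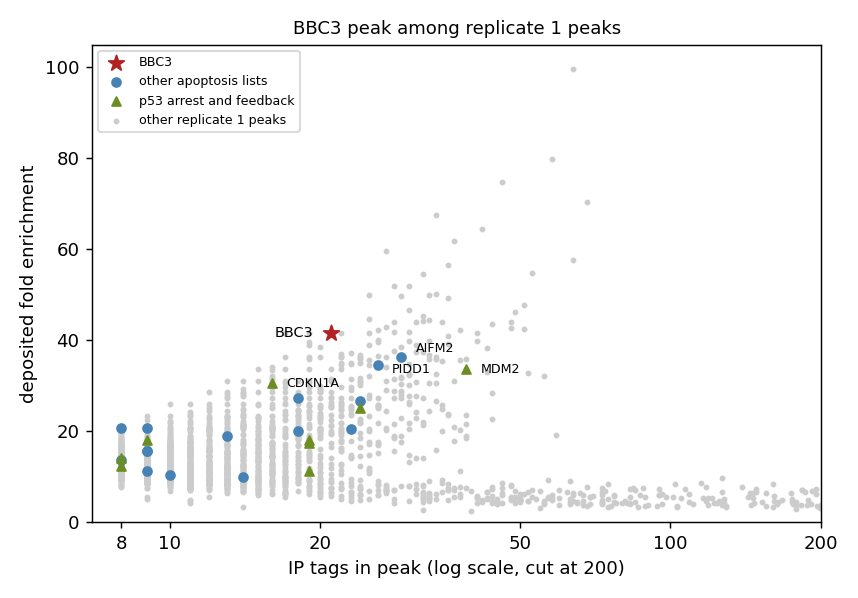
Deposited fold enrichment against IP tags (log scale) for the replicate 1 peaks. The BBC3 peak is a red star, peaks of the other apoptosis lists are blue and those of p53 arrest and feedback genes are green. BBC3, at 21 tags and a fold of 41.52, lies above all coloured points in fold. The 100 peaks with over 200 tags are outside the axis.

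The genes of p63 itself and of its relative p73 were read in the same way. TP63 had peaks of 38 and 17 tags inside the gene, and the 38-tag peak was matched in replicate 2. TP73 had peaks of 20, 14, 11 and 8 tags inside the gene, and the 14-tag summit lay within the TP73 element printed above, at chr1:3690596-3690615.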

How the data were processed

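Chromatin immunoprecipitation with sequencing of p63 in HSC-5 cells gave 1 peak list per IP. Per the file headers, MACS 1.4.2 called each list against a single control library. FastQC, Trimmomatic, Bowtie and hg19 are named in the submitters' processing notes. Deposited tag counts are whole numbers of kept tags per peak, at 1 tag per position and without normalisation. Per the file headers, the score is -10 times the log10 of the p-value and the false discovery rate is in percent. Width and summit offset are in bases. The fold is the caller's own enrichment value, and how it was computed was not checked. Scores and folds are the authors' and were used only within a list.

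The 3 sheets of replicate 1 were identical in all 4077 peaks, and 1 was used. It was read as GRCh38: 83 peaks lay on contigs outside the chromosomes and 0 peaks lay beyond the last protein-coding gene, against 31 in replicate 2. Nothing was converted between builds. Of the IP tags, 42.7% were removed as duplicates in replicate 1 and 78.8% in replicate 2, and control tags kept were 28327222 and 13175270.

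Distances run from the nearer end of the RefSeq GRCh38.p14 gene span to the summit. Peaks of the replicates were matched where 2 or more further pairs, over 2 kb and under 10 Mb away, repeated their summit offset to within 100 bp, with offsets up to 5 Mb and widths under 1 kb. This gave 210 pairs, and the settings were taken over from an earlier reading of these lists. On simulated data with 400 and 300 peaks spread evenly at random on 1 chromosome, it recovered 60 of 60 planted pairs with 1 false pair, and gave 0 pairs where none was planted. Real peaks are clustered and may differ. Python 3.11.15, pandas 2.3.3 and scipy 1.17.1 were used.

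No statistical test of the members was made, because only 1 list was placed on genes and genes are not replicates. Genes named are the 10 members, genes at or nearest to their flanking peaks, list genes with a peak and genes nearest to those peaks. Also named are BCL2 and FASLG, list genes without a peak within 50 kb, and the microRNA genes inside BBC3. The members and lists were chosen with earlier results of these data known.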

Additional observations from a re-analysis of the deposited data

How the results depend on the processing

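Of 11 other ways of counting (the gene span alone, 10 kb or 100 kb either side, a score of 100 or more, a fold of 10 or more, 20 tags or more, peaks over 1 kb wide left out, the peak interval in place of the summit, the nearest gene only, matched peaks only, and no use of replicate 2), 10 gave 1 member with a peak. With matched peaks only, 0 members, 0 BH3-only and BAX genes, 0 distinct peaks and 0 tags were counted. Chromosome 19 had no matched peak at all. Wider windows, chosen after seeing the data, brought in TP53I3 and TP53INP1: 200 kb either side gave 3 members, 3 distinct peaks and 43 tags, and 500 kb gave 3 members, 9 distinct peaks and 138 tags. Of all protein-coding genes, 45.4% had a peak within 200 kb and 69.8% within 500 kb. The nearest gene with no distance limit again gave 1 member. The death receptor count was 0 under each of these 11 and of the 3 added ones. Settings that narrow the window or remove peaks could not raise a count of 0, and the main count makes no use of replicate 2. The BBC3 peak lies inside the gene and passed each cut-off on score, fold, tags and width. Most of these equal counts were therefore fixed in advance and add no support. Over the first 11, the number of genes with a peak ranged from 1 to 5 for the other BCL2 family, 0 to 2 for mitochondrial death, 0 to 9 for the death receptor pathway, 1 to 4 for p53-inducible apoptosis and 0 to 7 for arrest and feedback. Depth limits the zero counts, since no listed replicate 1 peak had under 8 tags. Replicate 2 alone was not run, because it was not placed on genes. No paired analysis of the replicates was run, because only 1 list was placed on genes and no test was made. Each IP list had already been called against a single control library.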
